A study of Mus musculus with 2 samples.

Results

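Feeder fibroblasts were the cells of the embryonic stem cell (ESC) library that carried fibroblast collagen transcripts and little stem cell RNA. The cells were chosen by measured values, as the kept cells with at least 10 unique molecular identifiers (UMIs, counts of captured transcript molecules) summed over Col1a1, Col1a2, Col3a1, Lox, Postn and Thy1, and with under 2000 UMIs per 1000000 (CPM) summed over Pou5f1, Sox2, Dppa5a, Dppa4, Tdgf1, Utf1, Zfp42 and Trim28. This rule found 82 of the 11054 kept cells of the ESC library (0.742%, exact binomial interval 0.590 to 0.92), out of 25611 barcodes in the whole series. They were compared with the 10802 kept cells of the same library that had at most 2 UMIs of the 6 fibroblast genes, called comparison cells here.

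The study prepared 2 mouse droplet libraries, 1 per stage, and no replicates. The ESC library (0 h) held Cnot8 knockout (KO) cells and wild-type (WT) cells in equal numbers, and the latter bear the ROSAmT/mG reporter with its tdTomato transcript. Both were grown in serum/LIF medium on dishes coated with feeders. The second library held 48h-EpiLCs (48 h), for which WT and Cnot8 KO cells were grown on Matrigel with activin A and bFGF, without feeders, and were mixed in equal numbers after dissociation. The feeders of the study were mouse embryonic fibroblasts (MEFs) of the ICR strain, the strain given for both samples, that had been inactivated by mitomycin C. The embryos or preparations that gave the feeders are not described. The genotype field of both samples reads wild type, while their titles name the WT and KO mixture. The feeders are not described as carrying the knockout or the reporter, so no genotype contrast applies to them.

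A feeder layer is a sheet of connective tissue cells that no longer divides, on which stem cells attach and grow. Fibroblasts build the extracellular matrix from fibrillar collagens, fibronectin and proteoglycans, and they remodel it with proteases and protease inhibitors. In culture on plastic they often form actin stress fibres, the state called myofibroblast when smooth muscle actin is among them. Mitomycin C crosslinks DNA, which stops replication and engages the p53 pathway, and feeder cells are known to secrete activin and antagonists of bone morphogenetic proteins (BMPs).

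With 1 library and cells that are not replicates, no test was run. Ratios of summed CPM carry exact 95% intervals that cover counting error only. UMIs of this 3′ assay were not divided by transcript length, so levels of different genes are given in UMIs or CPM and are not ranked as molecules per length. The feeder fibroblasts had a median of 13797 UMIs per cell (range 2786 to 31177) and held 1223759 UMIs in all. The comparison cells had a median of 11865.5 and held 137642255 UMIs. The median mitochondrial share was 3.67% in feeder fibroblasts and 3.96% in comparison cells, and ribosomal protein genes took 19.8% and 21.6% of the UMIs. Feeder fibroblasts had a median of 3852.5 detected genes and comparison cells 3546. After each cell was thinned to 5000 UMIs the medians were 2115 over 81 feeder fibroblasts and 2118 over 10325 comparison cells, which left out 1 and 477 shallower cells.

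The 6 collagen and surface genes of the rule chose the cells, so their values are a description. Their summed UMIs ran from 10 through a median of 23 to 99 per cell. Col1a2, a chain of type I collagen, stood at 648 CPM in feeder fibroblasts and 1.39 CPM in comparison cells. Col1a1, the other chain, stood at 574 and 2.32 CPM. Lox, which crosslinks collagen, stood at 357 and 0.908 CPM, and Col3a1 at 84.2 and 0.291 CPM. Thy1 and Postn were sparse, with a UMI in 34 and 18 of the 82 cells. The 8 stem cell genes summed to between 0 and 1966 CPM (median 369.5) against a median of 5988 CPM in comparison cells. There were 16 feeder fibroblasts with 10 to 12 fibroblast UMIs, just inside the minimum, and 14 kept cells with 7 to 9 UMIs under the same ceiling, just outside it. There were 7 feeder fibroblasts at 1000 to 2000 CPM of the stem cell genes, and 11 cells with enough fibroblast UMIs at 2000 to 3000 CPM.

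**Figure D1:**
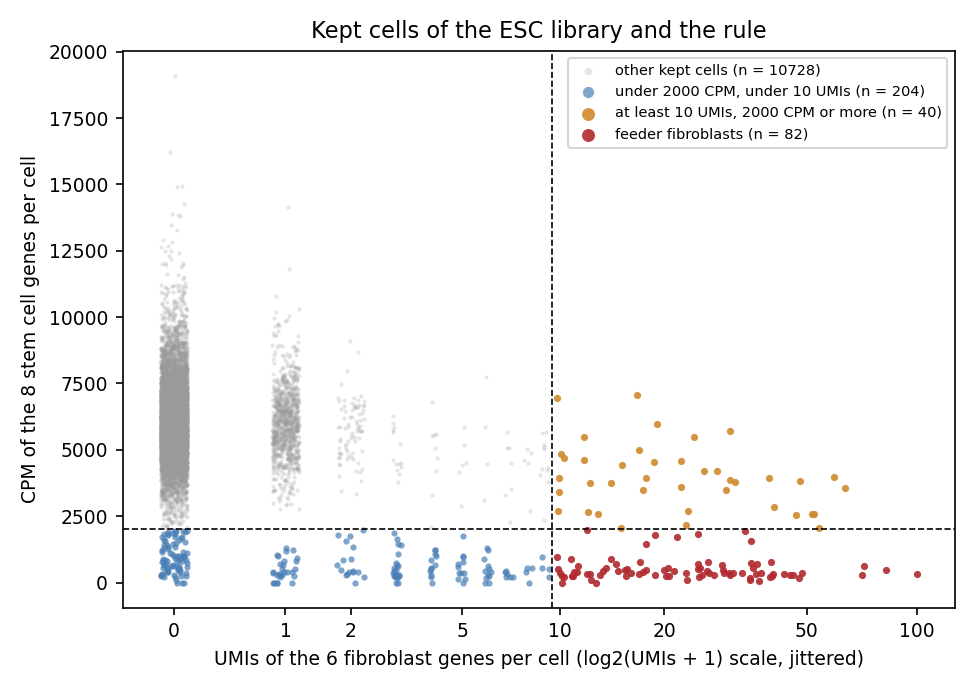
Each point is a kept cell of the ESC library, with the UMIs of the 6 fibroblast genes on a log2(UMIs + 1) axis and the CPM of the 8 stem cell genes on a linear axis, and dashed lines mark the minimum of 10 UMIs and the ceiling of 2000 CPM. The 82 feeder fibroblasts lie at the lower right, apart from 40 cells with at least 10 UMIs and 2000 CPM or more, and 204 cells lie below the ceiling with under 10 UMIs.

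Of 10072 genes with a mean of at least 5 CPM over both classes, 1493 (14.8%) were at least 4-fold higher in feeder fibroblasts and 1016 (10.1%) were at least 4-fold lower, and the median log2 ratio was -0.05. These shares are the background for the counts of listed genes. A gene under 2 CPM in either class could pass the expression minimum only by being more than 4-fold apart, so its call was fixed by the minimum, which held for 575 of the 1493 higher and 248 of the 1016 lower genes. Such fixed calls are given beside each list, and their number is not read as a result. Ratios printed for single genes among them describe levels only. Of the 9249 tested genes that were not fixed, 918 were higher. With the scaling factors of the trimmed mean of M-values (TMM) in place of library totals, every log2 ratio was lower by 0.29, and the counts were 1176 higher and 1312 lower. Directions of the called genes named here held under that scaling, and the values given use library totals.

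Most matrix genes that could be tested were higher. Of 37 listed matrix genes outside the rule, 30 passed the expression minimum, 28 were at least 4-fold higher in feeder fibroblasts and 0 were 4-fold lower, with a median log2 ratio of 6.31. Of the 28, 17 were fixed by the minimum, and of the 13 tested genes that were not fixed, 11 were higher. Their summed level was 8447 CPM against 413.5 CPM. Fbln2, an elastic fibre protein (chr6:91212455-91272540 on GRCm38, the build of mm10), had 0, 15 and 74 UMIs in the lowest, median and highest of the 82 cells. Its level was 1271 CPM against 5.24 CPM, a ratio of 243 (222 to 265). Bgn, the small proteoglycan biglycan, had 0, 17 and 77 UMIs and a ratio of 229.5 (211 to 250.3), and it was seen in 81 of the 82 cells.

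Other matrix genes were as far from the comparison cells. Col5a2, a chain of type V collagen, reached a ratio of 261 (218 to 313). Thbs1, the adhesive glycoprotein thrombospondin, had 0, 9.5 and 88 UMIs per cell and stood at 1015 CPM against 5.28 CPM. Tnc, tenascin C, stood at 471 CPM against 2.78 CPM. All of these were near 0 in comparison cells. Fn1, fibronectin, and Sparc, a collagen-binding protein, were present in both classes. Fn1 stood at 929 CPM against 93.7 CPM, a ratio of 9.91 (9.32 to 10.53), and Sparc at 1321 CPM against 196 CPM, a ratio of 6.75 (6.41 to 7.1). The 2 tested genes between the limits were Fbln1 and Emilin1, with ratios of 1.55 and 1.01. No UMI was seen for Col14a1, Eln or Fmod in any feeder fibroblast.

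Basement membrane genes were divided. Of 15 listed, 13 were tested, 8 were higher (2 fixed by the minimum) and 3 lower (1 fixed). The collagen IV chains were higher, Col4a1 at 206 CPM against 14.2 CPM and Col4a2 at 133 CPM against 5.17 CPM. Nid2 (17.2 against 74.1 CPM), Lama5 (8.99 against 37.6 CPM) and Lama1 (0.817 against 12.6 CPM) were lower. Lamc1, the gamma chain of most laminins, had a ratio of 0.889 (0.682 to 1.14), within counting error of equal levels.

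Enzymes that modify procollagen were less uniform than the collagens themselves. Of 20 tested, 9 were at least 4-fold higher (4 fixed by the minimum), 0 were lower and 11 lay between. Serpinh1, the collagen chaperone Hsp47, stood at 518 CPM against 22.7 CPM and was seen in 81 cells. The lysyl oxidase relatives Loxl1 and Loxl3 had ratios of 89.3 (72.7 to 109.5) and 206 (156 to 275). P4hb, the shared subunit of prolyl hydroxylase and a general protein disulphide isomerase, had a ratio of 1.49 (1.34 to 1.65).

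Among proteases and their inhibitors, 16 of 20 tested genes were higher (6 fixed by the minimum) and 0 lower. Timp1, an inhibitor of matrix metalloproteinases, was seen in all 82 cells, with 1, 22 and 204 UMIs in the lowest, median and highest cell. Its level was 2538 CPM against 49.8 CPM. Timp2 stood at 998 CPM against 8.2 CPM with 2, 13 and 54 UMIs. Both inhibitors were thus seen in every cell. Mmp3, at 181 CPM, had UMIs in 22 cells, Mmp13 in 13 and Mmp10 in 11. How often a gene is seen depends on its level, so these counts are no contrast between inhibitors and proteases. Mmp14, a membrane-bound collagenase, was seen in 68 cells. Timp1 overlaps Syn1 on the opposite strand.

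The list of contractile and cytoskeletal genes held the most RNA of any list described here. Much of this came from S100a6, Vim and S100a4, which are not contractile proteins and stood at 13031, 5044 and 1931 CPM. All 22 listed genes were tested, 20 were at least 4-fold higher (3 fixed by the minimum) and 0 lower, and they summed to 37315 CPM against 1462 CPM. S100a6, a small calcium-binding protein (chr3:90612882-90624181), had 50, 161.5 and 745 UMIs in the lowest, median and highest cell, and stood at 13031 CPM against 223 CPM. It was the most abundant transcript of feeder fibroblasts after Malat1 among genes that are neither ribosomal nor mitochondrial. Vim, the intermediate filament of mesenchymal cells, had 13, 64 and 280 UMIs, and its level was 5044 CPM against 233 CPM. Every feeder fibroblast thus carried both.

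The smooth muscle genes Acta2 and Tagln were high on average and uneven between cells. Acta2, smooth muscle actin (chr19:34241090-34255590), had 0, 12 and 196 UMIs, was seen in 71 of 82 cells, and stood at 2189 CPM against 17.4 CPM (ratio 126, 119 to 133, and 242.5 without the 131 comparison cells of low stem cell RNA described further on). Tagln, an actin-binding protein, had 0, 20 and 254 UMIs, was seen in 77 cells and had a ratio of 108 (103 to 114, and 171 without those cells). After thinning to 5000 UMIs, 76.5% of feeder fibroblasts and 3.51% of comparison cells had an Acta2 UMI. The late smooth muscle genes were sparse: Cnn1 had UMIs in 26 cells, Lmod1 in 18 and Actg2 in 18, and Myh11, the smooth muscle myosin, had 5 UMIs in all. Tagln overlaps Pcsk7 on the opposite strand.

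Promoters of the contractile genes were searched for short motifs. RefSeq promoters on GRCm38.p6 were matched by symbol for 18 of the 22 genes. The MCAT motif, which TEAD factors are known to bind, was searched as CATTCC on both strands in the 250 bases before the start. It was in the promoters of 8 of the 18 genes (44.4%) and in 14.4% of 27025 genes. The 8 include Ankrd1 and Ccn1, which are not contractile proteins, so the share depends on which genes were listed. In 28 promoter-matched matrix genes, those of the rule included, it was in 14.3%, and in 23 matched p53 target genes in 8.7%. The CArG box, bound by serum response factor, was in 2 of the 18 (11.1%), Cnn2 and Myl9, and in 1.62% of all genes. The CCAAT box (CCAAT) was in 55.6% of the contractile genes and 37.5% of all, and TATAAA in 22.2% and 14.3%. The motifs were chosen after the values had been seen, 1 chromosome was not used, and a match is a description of the letters, not of binding. The stretches around the motif are shown for 6 of the 8 genes, read on the strand of the gene with the motif or its reverse complement in capitals:
Acta2, chr19:34255502-34255531, minus strand: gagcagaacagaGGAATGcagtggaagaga
Tpm1, chr9:67049252-67049281, minus strand: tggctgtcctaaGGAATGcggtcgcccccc
Cald1, chr6:34598321-34598386, plus strand: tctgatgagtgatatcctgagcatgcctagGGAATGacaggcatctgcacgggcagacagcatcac
Ccn1, chr3:145650053-145650118, minus strand: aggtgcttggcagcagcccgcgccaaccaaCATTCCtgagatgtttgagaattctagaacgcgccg
Flna, chrX:74246645-74246710, minus strand: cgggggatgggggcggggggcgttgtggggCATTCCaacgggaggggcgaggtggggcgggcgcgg
Lmod1, chr1:135324653-135324718, plus strand: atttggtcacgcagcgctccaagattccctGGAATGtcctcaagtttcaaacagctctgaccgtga

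The motif begins 146 bases before the RefSeq start in Acta2 and in Flna, 56 bases before it in Tpm1, 153 in Cald1, 103 in Ccn1 and 130 in Lmod1. In GENCODE M21 the Acta2 and Tpm1 stretches lie in exons of those genes, whose annotated starts are further upstream there, the Flna stretch lies in an intron of Flna, and the other 3 lie outside any gene. The levels of these genes in feeder fibroblasts ran from Lmod1, at 33.5 CPM in 18 cells, through Ccn1 at 123 CPM, Flna at 413 CPM and Tpm1 at 1562 CPM to Acta2 and Cald1, the actin regulator caldesmon, at 2189 and 2469 CPM. All 6 were at least 4-fold higher than in comparison cells.

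**Figure D2:**
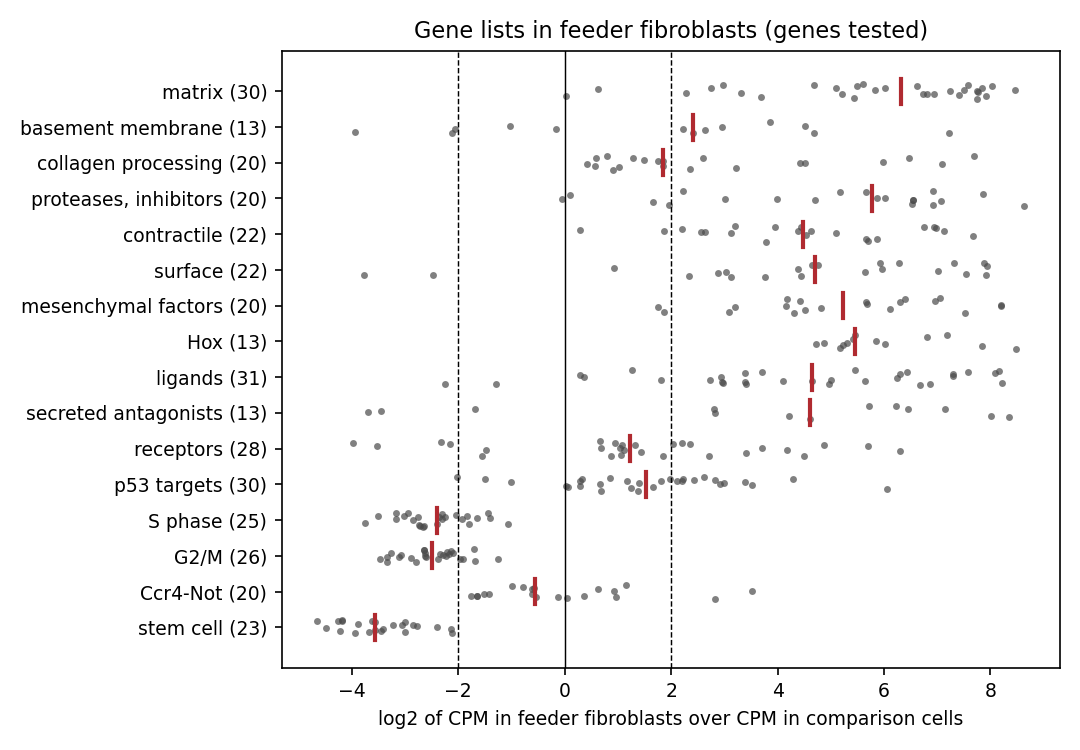
Each grey point is a listed gene that passed the expression minimum, placed by the log2 ratio of its CPM in the 82 feeder fibroblasts over that in the 10802 comparison cells, with the number of genes per list in parentheses, red bars at the medians and dashed lines at a 4-fold difference. Matrix genes lie mostly to the right, S phase, G2/M and stem cell genes to the left, and receptors, p53 targets and Ccr4-Not genes lie closer to 0. The side was fixed by the expression minimum for 17 of 30 matrix, 13 of 20 mesenchymal factor and all 13 Hox genes. It was also fixed for 3 of 23 stem cell genes, and nothing is read from these points.

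Surface and adhesion genes were mostly higher, 19 of 22 tested (9 fixed by the minimum), and 2, the peptidases Dpp4 and Mme, were lower (both fixed). Cd44, the hyaluronan receptor, had 0, 6 and 34 UMIs, was seen in 80 of 82 cells and stood at 521 CPM against 2.2 CPM (ratio 236, 206 to 272, and 358 without the 131 cells). Itgb1, the integrin beta chain of most matrix receptors, stood at 1006 CPM against 74.4 CPM. Cdh11, the cadherin of mesenchyme, had a ratio of 187 (152 to 229.9), while Pdgfra, a receptor of many fibroblasts, was sparse, at 34.3 CPM against 4.21 CPM with UMIs in 21 cells. Ly6a, a surface antigen of some mesenchymal progenitors, had 40 of its 153 UMIs in 1 cell and was seen in 34.

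Mesenchymal transcription factors were 18 of 20 tested higher (13 fixed by the minimum) and 0 lower, and 13 of the 33 listed were under the expression minimum. Of the 7 tested factors that were not fixed, 5 were higher. Prrx1, a homeobox factor of limb and body wall mesenchyme, had 0, 5 and 27 UMIs, was seen in 73 cells and stood at 410.2 CPM against 1.4 CPM (ratio 294, 249 to 349, and 453 without the 131 cells). Its relative Prrx2 stood at 208 CPM against 9.14 CPM. Twist2 had a ratio of 185 (128 to 271) and Twist1 of 9.23 (7.37 to 11.4). Zeb2 and Zeb1, repressors of epithelial genes, differed in ratio, at 51.3 (40.7 to 64.3) and 3.39 (2.53 to 4.44), and Zeb1 stood at 13.03 CPM in comparison cells. Prrx1 overlaps Gm20471 on the opposite strand.

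Hox genes, whose combination marks position along the body axis, were spread over all 4 clusters. Of 39 listed, 36 had a UMI in feeder fibroblasts, and 13 passed the expression minimum. None of these 13 reached 2 CPM in comparison cells, so that all were called higher by the minimum itself. In all, 75 of the 82 cells (91.5%) had a Hox UMI, and a cell had UMIs of 0 to 13 Hox genes, with a median of 3. Hoxc genes were seen in 49 cells, Hoxa in 48, Hoxb in 35 and Hoxd in 25. Genes of paralogue groups 9 to 13, which mark the posterior trunk and limbs, were seen in 61 cells (203 UMIs of 16 listed genes). Groups 6 to 8 were seen in 55 cells (212 UMIs of 8 genes) and groups 1 to 5 in 35 (94 UMIs of 15 genes). Hoxc8 had 69 UMIs in 26 cells, Hoxb9 64 in 26, and Hoxc6 60 in 33. Hoxd11, a gene of the limb and posterior trunk, had 21 UMIs in 9 cells, with 7 of them in 1 cell. The annotated Hoxc5 spans Hoxc6 and Hoxc8, so reads of these genes could be divided in counting.

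Feeder fibroblasts carried transcripts of many secreted ligands. Of 31 tested ligand genes, 25 were higher (18 fixed by the minimum) and 1 was lower. Of the 13 that were not fixed, 7 were higher. Inhba, the subunit of activin A (chr13:16011851-16031621, GRCm38 as annotated in GENCODE M21), was the gene with the highest ratio among all genes of at least 200 CPM outside the rule. It had 0, 7 and 129 UMIs in the lowest, median and highest cell, was seen in 74 cells and stood at 974 CPM against 3.29 CPM (ratio 296, 265 to 331). The interval overlaps that of Prrx1 (249 to 349), and without the 131 cells Prrx1 came first, with ratios of 433 for Inhba and 453 for Prrx1. The Inhba gene overlaps Gm48444 on the opposite strand. The 5 cells with the most Inhba held 37.7% of its UMIs.

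Growth factors for other cells were present at lower levels. Csf1, the macrophage growth factor, stood at 244 CPM against 1.27 CPM, and Hbegf, a ligand of the EGF receptor, at 280 CPM against 26.7 CPM. Fgf2 and Fgf7 stood at 62.9 and 83.4 CPM against 0.4 and 0.305 CPM. Wnt5a, a non-canonical Wnt ligand, stood at 95.6 CPM against 0.93 CPM. Il11, a cytokine of the LIF family, had 162 UMIs in 30 cells, of which 38 were in 1 cell. Lif itself was sparse in both classes, at 11.4 CPM against 1.07 CPM. Mdk, midkine, was the lower ligand, at 43.3 CPM against 205 CPM. Pdgfa was present in both, with a ratio of 1.22 (1.05 to 1.41).

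Among 13 tested secreted antagonists, 10 were higher (6 fixed by the minimum) and 2 were lower. Of the 7 that were not fixed, 4 were higher. Fst, follistatin, which binds activin, had 0, 4.5 and 91 UMIs and stood at 665 CPM against 7.59 CPM (ratio 87.6, 79.8 to 96.1). Grem1, an antagonist of BMPs, stood at 198 CPM against 1.39 CPM. Fstl1, a follistatin relative, was seen in 80 cells. The lower pair was Lefty1 and Lefty2, inhibitors of Nodal, at 5.72 and 4.09 CPM against 73.9 and 44.6 CPM.

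Receptors were divided. Of 28 tested, 11 were higher (5 fixed by the minimum), 4 were lower (2 fixed) and 13 lay between, with a median log2 ratio of 1.22. With TMM scaling 7 were higher. Tgfbr2, the type II receptor of TGF-beta, had a ratio of 78.5 (52.2 to 117) and Egfr of 52.2 (35.8 to 75). Bmpr1a had a ratio of 2.17 (1.66 to 2.8). Lifr, a subunit of the LIF receptor, was lower, at 4.9 CPM against 24.4 CPM, as were Acvr2b, Kit and Erbb3.

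Chemokines and other genes of the secretory state of senescent cells were 14 of 18 tested higher (10 fixed by the minimum) and 2 lower. Of the 8 that were not fixed, 4 were higher. Ccl2, which attracts monocytes, had 0, 3 and 122 UMIs, was seen in 59 cells and stood at 654 CPM against 4.18 CPM (ratio 156, 140.2 to 174, and 247 without the 131 cells). Its neighbour in the chemokine cluster, Ccl7, had a ratio of 151 (127 to 180). Igfbp7, a secreted binder of insulin-like growth factors, was seen in 70 cells at 515 CPM against 4.71 CPM. Cxcl5 and Cxcl2, which attract neutrophils, were confined to few cells, Cxcl5 with 122 UMIs in 17 cells and Cxcl2 with 20 UMIs in 3. Cdkn2a, an inhibitor of cyclin-dependent kinases, had a ratio of 2.29 (1.88 to 2.77), and its neighbour Cdkn2b of 13.9 (11.5 to 16.7). Lmnb1, the lamin that is low in senescent cells, stood at 41.7 CPM against 376 CPM. The other lower gene was Igfbp2, at 24.5 CPM against 183 CPM.

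Targets of p53 were partly higher. Of 30 tested, 12 were at least 4-fold higher (1 fixed by the minimum), 1 lower and 17 lay between, and the list summed to 6760 CPM against 2378 CPM. Cdkn1a, the cell cycle inhibitor p21 (chr17:29090976-29100727), had 0, 14 and 55 UMIs, was seen in 81 of 82 cells and stood at 1135 CPM against 58.1 CPM (ratio 19.6, 18.4 to 20.7). Mdm2, the ubiquitin ligase that p53 induces against itself, had a ratio of 6.13 (5.71 to 6.56), Phlda3 of 7.58 (7 to 8.2) and Ccng1 of 5.38 (4.96 to 5.81). These 4 were seen in 75 cells or more. Of the targets that promote cell death, Fas had a ratio of 66.6 (45 to 97.5) on 45 UMIs, while Bax, Bbc3 and Pmaip1 had ratios of 1.23, 1.59 and 2.25. Aen and Psrc1 had ratios of 1.04 and 1.02, and the lower gene was Plk3 at 0.246. Each of the 82 cells had a summed level of the list above the median of comparison cells (2245 CPM), and 79 were above their 90th percentile (3458 CPM).

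Replication and division genes were low. All 25 S phase genes and all 26 G2/M genes were tested, 18 and 21 were at least 4-fold lower, and 0 of either list were higher. S phase genes summed to 820.4 CPM against 4526 CPM, and G2/M genes to 916 CPM against 4680 CPM. Pcna, the sliding clamp of DNA polymerase, had 0, 1 and 4 UMIs per cell and a ratio of 0.21 (0.164 to 0.264). Hells, a chromatin remodeller, was lower still, at 40.04 CPM against 540.3 CPM. Rrm2, a ribonucleotide reductase subunit, had the most UMIs of the S phase genes in feeder fibroblasts and a ratio of 0.479 (0.401 to 0.567). None of the 82 cells reached the 10th percentile of comparison cells for S phase genes (3291 CPM).

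For G2/M genes 7 of the 82 reached the 10th percentile of comparison cells (3045 CPM) and 2 reached the median (4621 CPM). These 2 cells had 5910 and 5691 CPM of G2/M genes, with 30 and 35 fibroblast UMIs and 373 and 554 CPM of stem cell genes. Their S phase genes were at 1863 and 1158 CPM. The 7 cells had between 0 and 765 CPM of stem cell genes and 10 to 40 fibroblast UMIs, values that the rule itself limits. Those with 3691 and 3070 CPM of G2/M genes lay at the edge of the rule. They had 10 and 11 fibroblast UMIs, on 5147 and 8796 UMIs in all. Single cells accordingly held much of the RNA of some genes: Ube2c, a ubiquitin-conjugating enzyme of mitosis, had up to 19 UMIs in a cell and a median of 1, and Top2a, topoisomerase II, up to 14 and a median of 0. Whether these cells were dividing was not tested.

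Xist, the RNA of the inactive X chromosome, and Y-linked transcripts divided the feeder fibroblasts. Xist without any UMI of 4 Y-linked genes was seen in 34 of the 82 cells (41.5%), Y-linked UMIs without Xist in 32 (39.0%), both in 5 and neither in 11. The Xist-only cells had 1, 6 and 15 Xist UMIs in the lowest, median and highest cell, and the Y-only cells 1, 2 and 8 Y-linked UMIs. With a minimum of 2 UMIs, 35 had Xist only, 25 Y-linked only, 2 both and 20 neither. In comparison cells Xist only was seen in 4.81% and Y-linked transcripts only in 42.7%, at a median depth of 11865.5 UMIs against 13797. The 4 Y-linked genes summed to 77.85 CPM in comparison cells. How many Y-linked UMIs of the feeder fibroblasts came from stem cell RNA, described further on, was not tested. Xist overlaps Tsix on the opposite strand.

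The Xist-only and the Y-only cells differed for some transcripts, over cells that share 1 library. Acta2 stood at 2489 CPM (Poisson interval 2357 to 2627) in the Xist-only and at 1634 CPM (1522 to 1751) in the Y-only cells, Inhba at 1314 and 745 CPM, and Col1a1 at 659 and 481 CPM. S100a6 was in the other order, at 11741 and 13994 CPM. The contractile list summed to 36827 and 37401 CPM, the p53 targets to 6849 and 6658 CPM, and the matrix list to 9032 and 7914 CPM. These intervals cover counting error and not the spread between cells, which was wide for Acta2 and Inhba.

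**Figure D3:**
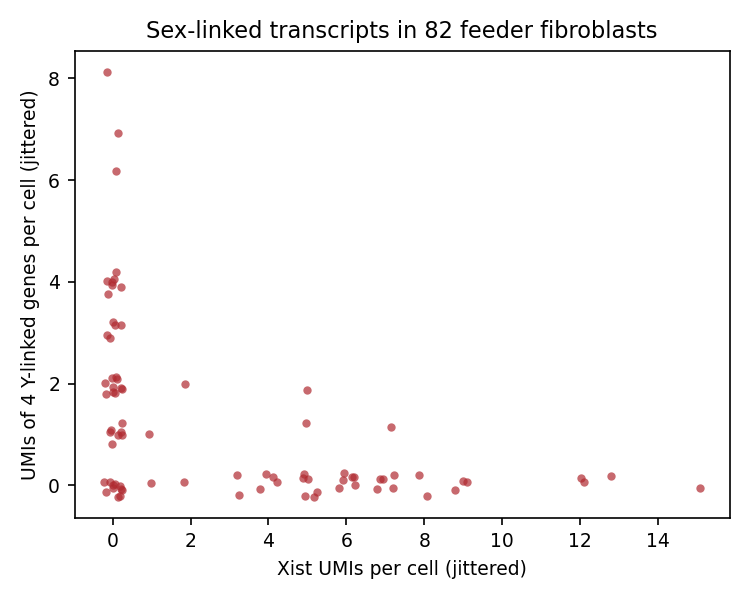
Each point is 1 of the 82 feeder fibroblasts, with Xist UMIs on the horizontal axis and the summed UMIs of 4 Y-linked genes on the vertical axis, both jittered. Most cells lie along either axis, 34 with Xist only and 32 with Y-linked UMIs only, and 5 lie off both axes.

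The tdTomato reporter was not seen in feeder fibroblasts: 0 of 82 cells had a UMI (exact interval 0 to 4.4%). In comparison cells, in which the WT cells carry the reporter and the KO cells do not, 4.74% had a tdTomato UMI. Cells with and without the reporter could therefore not be told apart at this depth.

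Feeder fibroblasts varied most in a few abundant or patchy transcripts. After thinning to 3000 UMIs (81 cells, 1 left out), the ratio of variance to mean had a median of 1.11 over 1619 genes of at least 100 CPM. For the same relative spread between cells this ratio grows with the level of a gene, so it does not rank spread alone. Malat1, a nuclear long noncoding RNA, had the highest ratio, 31.6, with 0, 311.5 and 1316 UMIs in the lowest, median and highest cell before thinning. Spp1, the matrix phosphoprotein osteopontin, followed at 28.1, with 0, 13 and 574 UMIs, and 5 cells held 40.8% of its UMIs. Timp1 (10.1), Cck (10.1), Acta2 (9.93), Tagln (8.95), Lce1g (8.88), Inhba (7.28), S100a6 (7.28), Ccl2 (7.07), Plin2 (6.57), Mmp3 (6.1) and H19 (5.62) were also far above the median. The other 2 of the 15 most variable genes were Gm42418, at 8.11, which can collect ribosomal RNA reads, and Actb, at 5.48.

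Some of these genes were limited to a minority of the cells. Cck, the peptide hormone cholecystokinin, had UMIs in 17 cells, and 5 cells held 76.3% of its 447 UMIs, with 100 in the highest. Lce1g, a gene of the skin barrier, had UMIs in 22 cells, of which 5 held 79.7%. H19, an imprinted noncoding RNA, had UMIs in 37 cells, with 63.2% in 5. By contrast the top 5 cells held 15.9% of S100a6, 16.1% of Bgn and 15.4% of Cdkn1a UMIs, so these were spread over more cells.

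Over 253 pairs of 23 such genes, 2 pairs had a Spearman rho of at least 0.5 across the 81 thinned cells: Acta2 with Tagln (0.78) and Ccl2 with Ccl7 (0.53). Acta2 and Tagln were both seen in 59 of the 81 cells, and Ccl2 and Ccl7 in 17. These are descriptions over cells of 1 library at equal depth.

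Among 17 tested imprinted genes, 8 were higher (1 fixed by the minimum) and 4 lower. Igf2, the fetal growth factor, stood at 139.7 CPM against 1.83 CPM and had UMIs in 45 cells. Meg3 had 0, 9 and 37 UMIs and a ratio of 3.56 (3.34 to 3.8), and H19 had a ratio of 4.12 (3.61 to 4.67). The lower genes were Phlda2, at 14.7 against 179.7 CPM, Peg10, at 18.8 against 156 CPM, Cdkn1c and Mest. Of 7 tested genes of antigen presentation and interferon response, 5 were higher and 0 lower, and with TMM scaling 3 were higher. B2m, the light chain of class I molecules, was seen in all 82 cells with 1, 5 and 23 UMIs, at a ratio of 42.8 (38.6 to 47.5), and Ifitm3 in all 82 at 4.35 (4.1 to 4.61). H2-D1 and H2-K1 were 8.79-fold and 4.23-fold higher, with uncertain division of reads between these similar genes.

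Genes of the Ccr4-Not deadenylase and its partners, the subject of the series, lay mostly within 4-fold of the comparison cells. All 20 were tested, 2 were higher and 0 lower. The 2 were Btg2 (270.5 against 23.5 CPM) and Btg1 (215 against 30.5 CPM), antiproliferative proteins that bind the deadenylase, and Btg2 was also counted among the p53 targets. Cnot8 stood at 40.04 CPM against 61.4 CPM, with 0, 1 and 3 UMIs per cell, and the comparison cells mix WT and Cnot8 KO cells. Cnot7, its close relative, had a ratio of 1.03 (0.776 to 1.35). Cnot3 was lower by a ratio of 0.319 (0.251 to 0.4), which does not reach 4-fold.

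Stem cell RNA was not absent from the feeder fibroblasts. Over 23 stem cell genes that the rule did not use, the level was a median of 8.46% of that in comparison cells, and 20 were under 15%. The 22 genes with a UMI in feeder fibroblasts ran from 3.99% for L1td1 to 23.2% for Klf2. Dppa3 had 0 UMIs there against 12.9 CPM and enters at the floor of 3 counts. All 23 were at least 4-fold lower, 3 of them fixed by the minimum. The 10 genes with the lowest ratio among those of at least 200 CPM in comparison cells were L1td1 (43.3 against 1085 CPM), Dppa2, Rbmxl2, Dnmt3b, Mylpf, Epcam, Bex4, Hells, Mtf2 and Hmgb2. Nanog had a UMI in 3.70% of feeder fibroblasts and 26.3% of comparison cells after thinning to 5000 UMIs, and L1td1 in 16% and 97.4%. Conversely 1.19% of comparison cells had a Col1a1 UMI at that depth, against 86.4% of feeder fibroblasts. Whether the stem cell RNA came from solution was not tested.

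Cells below the minimum of the rule, taken as sums, shared some transcripts with the feeder fibroblasts. Of 286 kept cells under the stem cell ceiling, 204 had under 10 fibroblast UMIs, and they were shallower. The 86 cells with 0 such UMIs had a median of 4431 UMIs, the 45 with 1 or 2 a median of 4569 and the 73 with 3 to 9 a median of 6324. S100a6 stood at 8682, 15576 and 12574 CPM in these bins, against 13031 CPM in feeder fibroblasts and 166 CPM in the 10671 cells above the ceiling with at most 2 fibroblast UMIs. Acta2 stood at 1281, 2262 and 1654 CPM in the 3 bins, and 9.03 CPM in those last cells. Bgn rose through the bins, at 170, 666 and 777 CPM, to 1311 CPM in feeder fibroblasts. Krt8, a keratin of simple epithelia, stood at 471, 4.13 and 247 CPM in the 3 bins and at 5.72 CPM in feeder fibroblasts.

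The 131 cells with at most 2 fibroblast UMIs were part of the comparison cells (1.21%). Without them, an alternative added after the data had been seen, 1506 genes were higher and 1021 lower, and the Acta2 and S100a6 levels of the comparison cells were 9.03 and 166 CPM in place of 17.4 and 223 CPM. Ratios were more than 1.5 times larger without them for 14 of the 227 listed genes called higher. The share of 0.742% counts only cells that met the minimum. It leaves out the shallow cells whose summed RNA held S100a6 and Acta2, and how many of those were fibroblasts was not tested.

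**Figure D4:**
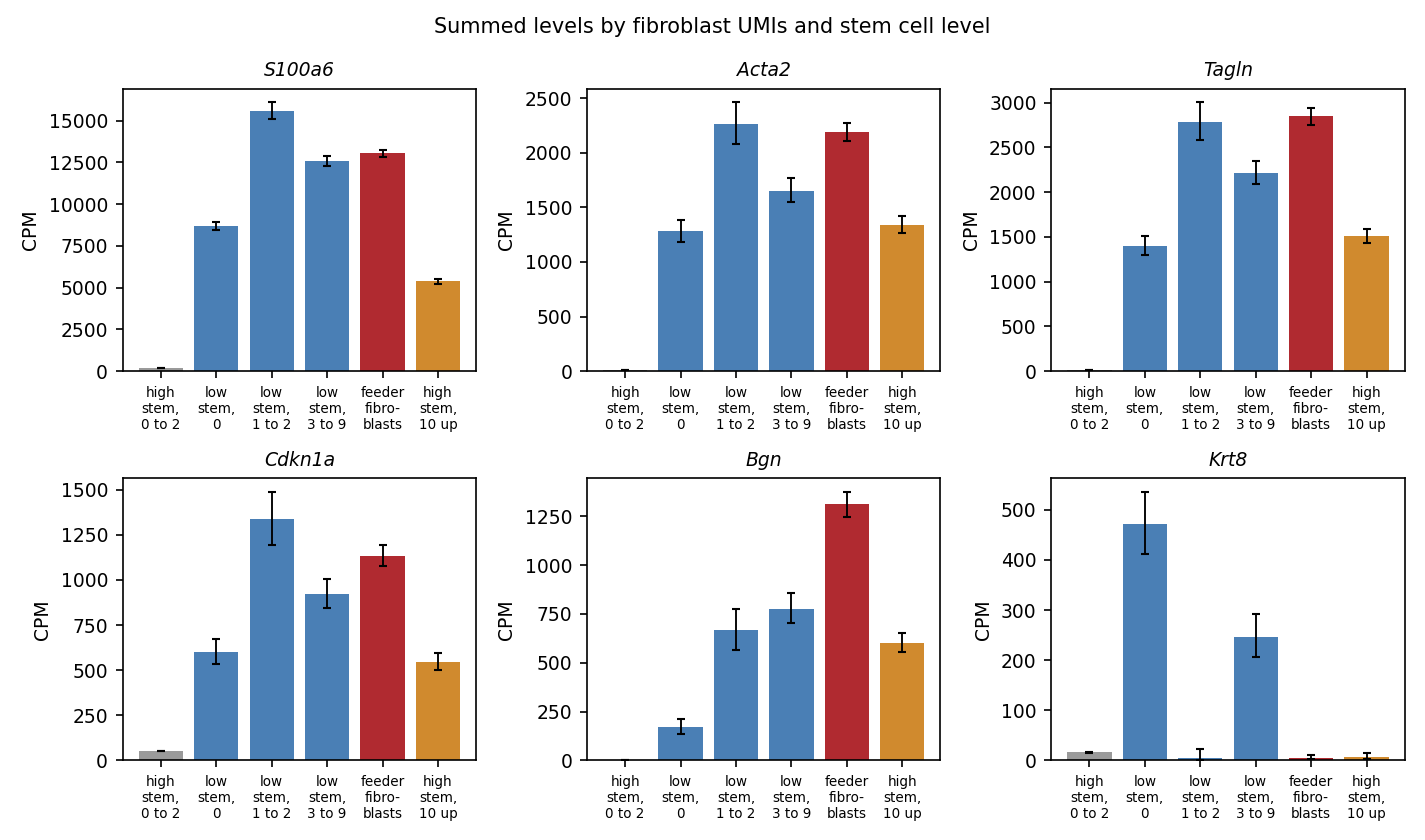
Bars give the summed CPM of 6 transcripts, with exact 95% Poisson intervals, in cells of the ESC library above the stem cell ceiling with 0 to 2 fibroblast UMIs (grey), below it with 0, 1 to 2 and 3 to 9 (blue), in the feeder fibroblasts (red) and above it with at least 10 (orange). S100a6, Acta2, Tagln and Cdkn1a are high in every blue bar and low in grey, while Krt8 is high only in the bins with 0 and with 3 to 9 UMIs.

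There were also 40 kept cells with at least 10 fibroblast UMIs and 2000 CPM or more of stem cell genes. They had a median of 24854 UMIs and 5331.5 genes per cell, above both classes, a median of 3843 CPM of the stem cell genes, and S100a6 at 5371 CPM. By doublet scores, 7 of these 40 (17.5%) and 0 of the 82 feeder fibroblasts were among the 1009 of 11054 cells (9.13%) with the top scores. Whether the 40 droplets held cells of both kinds was not tested.

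Feeder fibroblasts were set beside primitive endoderm-like cells of the library, which carried basement membrane transcripts such as Lama1. These were 97 kept cells with at least 10 UMIs over Gata4, Gata6, Sox17, Sox7, Foxa2, Dab2, Amn and Cubn and at most 2 fibroblast UMIs, with a median of 13361 UMIs per cell. The 2 classes carried different matrix. Lama1, the alpha chain of embryonic laminin, had 1 UMI (0.817 CPM) in feeder fibroblasts and stood at 230.1 CPM in the endoderm-like cells. Lamc1 stood at 51.5 against 206 CPM (ratio 0.25, 0.187 to 0.33) and Lamb1 at 178 against 341 CPM.

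Collagen IV was shared, with ratios of 0.787 (0.667 to 0.926) for Col4a1 and 1.36 (1.08 to 1.72) for Col4a2, and Sparc was 2.33-fold higher in feeder fibroblasts. Several interstitial matrix transcripts were higher in feeder fibroblasts. Fn1 had a ratio of 26.4 (19.8 to 35.9), Fbln2 of 295 (135 to 804), and Bgn of 456 (178 to 1674) on 4 UMIs in the endoderm-like cells. Col5a2 had 0 UMIs there, so that it was at least 154-fold higher in feeder fibroblasts with a floor of 3 counts over the class, and the exact interval of its ratio began at 125. Fbln1 and Emilin1 were close, with ratios of 1.11 (0.732 to 1.69) and 1.23 (0.762 to 1.99). The low level of the 6 rule genes in the endoderm-like cells was set by their choice.

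**Figure D5:**
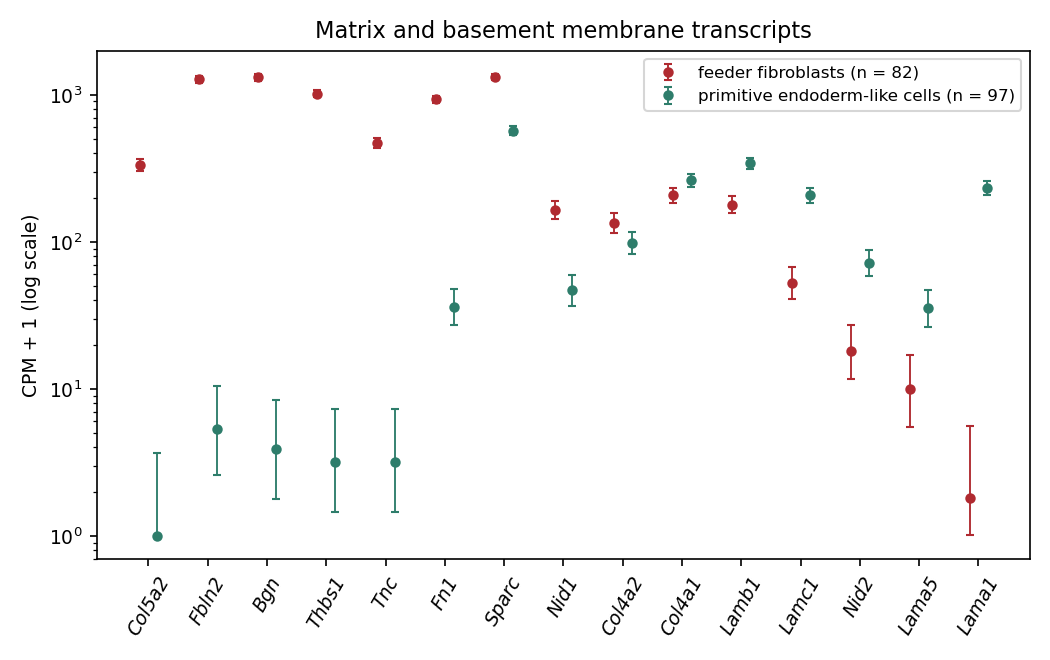
Points give CPM + 1 on a log axis of 15 matrix and basement membrane transcripts in 82 feeder fibroblasts (red) and 97 primitive endoderm-like cells (green), with exact 95% Poisson intervals. From Col5a2 to Fn1 the feeder fibroblasts are far higher, Col4a1 and Col4a2 are close, and Lamb1, Lamc1, Nid2, Lama5 and Lama1 are higher in the endoderm-like cells.

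Markers of other cell types were counted in the feeder fibroblasts, whose own collagen markers were set by the rule. Of the macrophage list, C1qa, C1qb, Adgre1, Lyz2 and Fcer1g were at 0 UMIs, and 5 of 8 genes in all. Of the skeletal muscle list 6 of 7 were at 0, Myod1 and Pax7 among them, of the keratinocyte list 5 of 6, of the erythroid list 5 of 6, of the endothelial list 3 of 6, of the cartilage list 3 of 6, and of the primitive endoderm list 4 of 8, Gata4 among them. Of the bone list 3 of 5 were at 0, of the mesothelial list 2 of 5, of the pericyte and smooth muscle list 2 of 7, and of the adipocyte, glial and neuronal lists 2 of 6 each. Markers that did reach 20 CPM were Sox9, a factor of cartilage and other mesenchyme (49.03 CPM against 1.02 CPM), Cspg4 (68.6 against 0.291 CPM), Mcam and Notch3 of the pericyte list, Des (45.8 against 12.3 CPM), Krt19 (45.8 against 11.1 CPM), Dab2 (24.5 against 3.89 CPM), Perp, which is also a p53 target, and Stmn2 and Tubb3, which were lower than in comparison cells. Their part in the results was not tested.

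The 48h-EpiLC library, grown without feeders, served as a side count. Of its 9400 kept cells, 1 met the rule (0.0106%), with 13 fibroblast UMIs, 17840 UMIs in all and 785 CPM of stem cell genes. The 2 libraries shared 41 barcodes, and 0 of the 82 feeder fibroblasts were among them.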

How the data were processed

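The 2 libraries (ESC and 48h-EpiLC) were made with the 10x Genomics 3′ kit after TrypLE dissociation and a cell strainer. The authors made the UMI counts with Cell Ranger (version 3.0.2) on mm10 with the tdTomato coding sequence added, and the deposited values are unnormalised counts of 32286 features per called barcode. The ESC library held 13184 barcodes and 144584246 UMIs, the 48h-EpiLC library 12427 barcodes and 163771168 UMIs. No correction for free RNA is stated, and Cell Ranger was run at its default settings, with the use of strand not named beyond that.

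Kept cells (11054 and 9400) had 1000 or more detected genes and no more than 10% of UMIs from mitochondrial genes. UMIs were summed per class and scaled to CPM. A ratio carries an exact interval conditional on both counts, CPM an exact Poisson interval and a share a Clopper-Pearson interval, all at 95%, and a class at 0 was set to 3 counts. These intervals cover counting error only, since cells are not replicates and each stage is 1 library. A gene was called at 4-fold with a mean of 5 CPM over both classes. Doublets were scored with Scrublet in scanpy (1.11.5), 2 simulated per cell at an expected rate of 0.1, and were not removed beyond the rule. The top 10% of scores were left out as an alternative. Thinning drew 5000 or 3000 UMIs per cell without replacement. The scripts were tested on simulated data. GENCODE M21 matched 32235 features by identifier, and promoters (250 bases before the start) came from RefSeq on GRCm38.p6. Analyses used Python (3.11.15), scipy (1.17.1) and pandas (2.3.3).

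The rule, gene lists and alternatives were chosen with earlier results of these data known. Named genes were those of the rule, up to 6 per list by level and 6 by ratio, the 20 highest and 10 lowest ratios above 200 CPM, the 15 most abundant and the 15 most variable genes, the Ccr4-Not list, Xist, tdTomato and defining markers of other cell types. Other members of these lists that the text names, the promoter motifs, the correlations and the counts of UMIs in the top 5 cells were chosen after their values had been seen. Some genes are not reported here by name.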

Additional observations from a re-analysis of the deposited data

Results flagged for a closer look

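Among the 2130 barcodes of the ESC library left out for few genes or a high mitochondrial share, 6 had at least 10 UMIs of the 6 fibroblast genes (0.282%, exact binomial interval 0.103 to 0.612). The floor of 3 counts is 0.141% of these barcodes, which lies within this interval. These 6 were drawn to attention because they lie in data that the comparisons did not use. They had a median of 4283.5 UMIs, a median of 17.5 fibroblast UMIs and a median mitochondrial share of 25.7% (3.17 to 36), and their summed S100a6 level was 4286 CPM against 13031 CPM in the 82 feeder fibroblasts.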

How the results depend on the processing

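The share of feeder fibroblasts (0.742%) was 1.09% with at least 5 fibroblast UMIs, 0.434% with at least 20 and 0.968% with a ceiling of 4000 CPM. With TMM scaling 7 receptors and 3 interferon and antigen presentation genes were higher. Without a minimum level 7577 genes, 33 Hox genes and 9 interferon and antigen presentation genes were higher, many of them on few UMIs. With a minimum of 20 CPM 778 genes were higher and 514 lower, and the lists gave 10 protease and inhibitor genes, 9 mesenchymal factors, 3 Hox genes, 12 ligands, 6 antagonists and 6 receptors higher, because fewer genes were tested. At a 2-fold limit 2691 genes were higher and 2564 lower, with 15 collagen processing genes, 19 p53 targets and 18 receptors higher. Median genes per cell were 2115 against 2118 after thinning to 5000 UMIs and 1496 against 1498 at 3000. With at least 20 fibroblast UMIs, 48 cells remained, of which 21 had Xist only and 18 Y-linked UMIs only. The other 215 recomputed counts, shares and medians stayed within 1.5 times the main count or within its interval. Ratios of single genes moved more, and many left the counting interval printed with them. Of 531 genes with a listed or named place, 133 did so with TMM scaling and 92 with stem cell RNA subtracted. With at least 20 fibroblast UMIs 71 did so, and the other settings moved between 2 and 49. No called gene among the 531 changed direction. Leaving out a replicate could not be done, since each stage is 1 library. No paired analysis was possible because there is 1 library per stage and no test. Depth limits statements on genes under about 2.45 CPM in feeder fibroblasts, the level of 3 counts.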
